A study of Mus musculus with 24 samples.

Results

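The immunoglobulin light-chain genes of the mouse lung were examined as every gene of the expression table whose symbol starts with Igkv, Igkc, Igkj, Iglv, Iglc or Iglj. This gave 89 of 23891 genes: 82 kappa variable genes (Igkv) of 17 families, the kappa constant gene Igkc, 3 lambda variable genes (Iglv1, Iglv2 and Iglv3) and 3 lambda constant genes (Iglc1, Iglc2 and Iglc3). No row starts with Igkj or Iglj, and a further 89 light-chain genes of the GENCODE M21 annotation were not analysed here. Igkc and the Igkv genes lie on chromosome 6, and the 6 lambda genes on chromosome 16.

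RNA-Seq was performed on the left lung lobe of 24 C57BL/6 mice. The adult group (n = 5) was 20 wk old, received saline and is called naïve adult. The other 3 groups were 80 wk old: naïve aged mice given saline (n = 5), aged mice challenged with house-dust mite extract (HDM), 50 µg per intranasal dose (n = 7), and aged mice with the same HDM challenge that were treated every 72 h with 4 mg/kg of the glucocorticoid dexamethasone (Dex; n = 7). The final HDM dose preceded harvest by 24 h, and no adult mice with HDM were among the samples.

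Each antibody holds a light chain, which is either kappa or lambda. In a developing B cell, 1 variable (V) gene is joined to a short J segment, and the joined VJ exon is spliced to a constant exon. Antibody-secreting plasma cells make very large amounts of these transcripts, and the daughters of one B cell share the same V gene. In whole-lung RNA, fewer B lineage cells and less RNA per cell cannot be told apart.

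The Igkv genes that had the highest level of all Igkv genes in at least 1 mouse were 11 in number. The ends of their V exons are shown because the sequence past the last cysteine codon is the germline-encoded start of the third complementarity-determining region, which contacts antigen. Sequences are from the GENCODE M21 transcripts of GRCm38, 5′ to 3′, and capitals mark the last cysteine codon with the 2 codons before it.
Igkv3-2 (chr6:70699036-70699067, plus strand): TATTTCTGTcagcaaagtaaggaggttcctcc
Igkv14-126 (chr6:67896611-67896642, plus strand): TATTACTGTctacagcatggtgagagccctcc
Igkv1-117 (chr6:68121796-68121827, plus strand): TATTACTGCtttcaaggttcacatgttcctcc
Igkv10-96 (chr6:68631963-68631994, minus strand): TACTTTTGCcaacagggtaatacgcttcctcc
Igkv8-21 (chr6:70314895-70314923, minus strand): TATTACTGCaagcaatcttataatcttcc
Igkv8-16 (chr6:70386672-70386703, minus strand): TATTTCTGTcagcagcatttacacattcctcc
Igkv5-43 (chr6:69823355-69823386, minus strand): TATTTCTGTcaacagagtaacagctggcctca
Igkv12-89 (chr6:68834846-68834877, minus strand): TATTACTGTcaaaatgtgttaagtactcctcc
Igkv4-91 (chr6:68768555-68768588, minus strand): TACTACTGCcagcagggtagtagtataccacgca
Igkv6-15 (chr6:70406469-70406500, minus strand): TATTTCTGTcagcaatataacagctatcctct
Igkv6-20 (chr6:70335841-70335872, minus strand): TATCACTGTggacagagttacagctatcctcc
These ends differed between families, and in all 82 Igkv genes the last in-frame cysteine codon lay 15 to 45 bases from the end of the V exon. V exons were 294 to 321 bases long, with a median identity of 88.1% within a family and 64.0% between families.

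The Igkv3 family takes up much of what follows, and the last 300 bases of 3 of its V exons, of 310 bases each, are therefore shown. In Igkv3-2 the capitals again mark the cysteine codon and the codons before it. In Igkv3-5 and Igkv3-10 the capitals mark the positions that differ from Igkv3-2.
Igkv3-2 (chr6:70698768-70699067, plus strand): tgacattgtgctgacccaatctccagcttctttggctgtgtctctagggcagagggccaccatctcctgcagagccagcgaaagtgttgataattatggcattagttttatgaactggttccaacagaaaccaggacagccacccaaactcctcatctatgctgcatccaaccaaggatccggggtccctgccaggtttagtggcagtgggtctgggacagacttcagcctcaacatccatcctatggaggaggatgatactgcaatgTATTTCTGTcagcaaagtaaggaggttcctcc
Igkv3-5 (chr6:70663596-70663895, plus strand): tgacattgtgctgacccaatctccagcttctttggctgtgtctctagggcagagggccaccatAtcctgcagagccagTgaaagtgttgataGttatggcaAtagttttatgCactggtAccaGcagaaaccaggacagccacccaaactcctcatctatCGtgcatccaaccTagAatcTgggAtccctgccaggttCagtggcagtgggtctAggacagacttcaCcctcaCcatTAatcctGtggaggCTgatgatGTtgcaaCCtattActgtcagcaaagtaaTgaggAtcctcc
Igkv3-10 (chr6:70572931-70573230, plus strand): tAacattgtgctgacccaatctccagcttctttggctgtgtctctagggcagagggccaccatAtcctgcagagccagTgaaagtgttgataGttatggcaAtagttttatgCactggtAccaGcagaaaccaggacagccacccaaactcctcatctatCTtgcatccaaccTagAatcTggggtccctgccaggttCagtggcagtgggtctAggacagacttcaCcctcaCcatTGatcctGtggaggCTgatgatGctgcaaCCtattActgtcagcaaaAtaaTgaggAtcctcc
Igkv3-5 and Igkv3-10 each differed from Igkv3-2 at 29 positions (90.6% identity) but from each other at 6 positions (98.1% identity), so reads could be split between these 2 genes with less certainty. The gene nearest to Igkv3-2 was Igkv3-1, at 92.9% identity. Across the 82 Igkv genes, 32 had a nearest gene with at least 95% identity, so that their separate values are uncertain. Igkv5-43 and Igkv5-45 were the closest pair, with 3 differing positions (99% identity).

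The values are CPM, the reads of each gene scaled to a common library total. The estimated depth was 10100000 to 33100000 reads per sample, so that 3 reads, taken as the detection floor, were worth 0.0906 to 0.298 CPM. The share of 7SL RNA, an abundant non-coding RNA, took up 13.6% to 42.0% of a library in adult, 9.92% to 18.1% in naïve aged, 15% to 34% in HDM and 11.3% to 31.6% in HDM + Dex samples. By Xist and Ddx3y the adult mice were all female, whereas the naïve aged group held 2 females and 3 males, HDM 2 and 5, and HDM + Dex 4 and 3. Lung markers were present in every sample, with Sftpc of alveolar type II cells at 1212 to 6469 CPM and Ager of alveolar type I cells at 220 to 1085 CPM.

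Igkc, which encodes the constant region of every kappa chain, was the most abundant light-chain gene in each group median. In naïve adult lungs it was measured at 10.5, 20.7, 25.9, 25.0 and 47.9 CPM, and in naïve aged lungs at 370, 1425, 1656, 1786 and 317 CPM. These groups did not overlap, and within the aged group 3 mice were far above the other 2. HDM samples ran from 369 through a median of 551 to 1668 CPM, the highest being replicate 5. HDM + Dex samples ran from 36.3 through a median of 297 to 1721 CPM, a wider range than any other group, with replicates 1 and 3 nearest to the adult level and replicate 7 at the top. The sum over the 82 Igkv genes was 6.54 to 27.7 CPM in adult, 82.3 to 785 CPM in naïve aged, 239 to 1130 CPM in HDM and 22.1 to 665 CPM in HDM + Dex samples. Of the 82 Igkv genes, 12 to 40 reached 3 reads in adult samples, 56 to 71 in naïve aged, 59 to 75 in HDM and 24 to 63 in HDM + Dex samples.

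**Figure D1:**
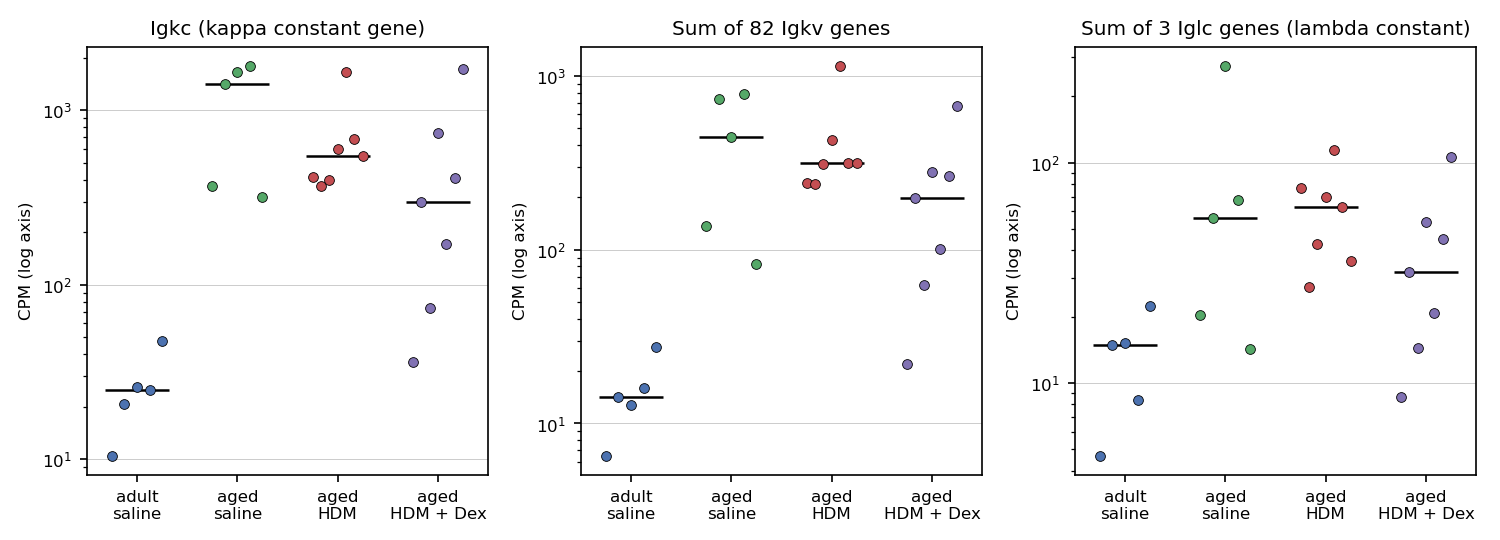
Levels of Igkc, the sum of the 82 Igkv genes and the sum of the 3 Iglc genes in CPM on log axes, with 1 point per mouse and a bar at the group median. Adult lungs lie below all naïve aged lungs for Igkc and the Igkv sum, and HDM + Dex lungs span 36.3 to 1721 CPM of Igkc.

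Igkv3-2 was the leading Igkv gene in all 5 naïve aged lungs, where it was measured at 43.1, 485, 176, 336 and 23.7 CPM and made up 31.5%, 66.3%, 39.7%, 42.8% and 28.8% of all Igkv CPM. In adult lungs the same gene was at 0, 0.148, 0, 0.216 and 0.161 CPM, that is, at or about the detection floor. It was at 8.82 to 86.2 CPM (median 15.7) in HDM lungs, with 2.35% to 27.5% of Igkv CPM, and at 1.11 to 195 CPM (median 10.1) in HDM + Dex lungs, with 2.21% to 29.4%. Thus the shares in naïve aged lungs lay above all those in HDM lungs and overlapped those in HDM + Dex lungs through HDM + Dex replicate 7 alone. The 2 HDM females, replicates 6 and 7, had the lowest 7SL shares of their group and held 27.5% and 13.2%. The 5 HDM males held 2.35% to 6.04%. HDM + Dex replicate 7 was also female, with a 7SL share of 11.3%. In that group female replicates 4 to 6 held 3.23% to 10.1%, and males held 2.21% to 5.04%. Male naïve aged lungs held 28.8% to 66.3%, and all naïve aged 7SL shares were 9.92% to 18.1%. No test was run on these shares, and the parts of sex and 7SL share in them were not tested.

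Outside the naïve aged group the leading gene varied between mice. The 5 adult lungs had 4 different leaders, of which Igkv8-16 in replicate 4 held 24.1% of Igkv CPM (3.84 CPM) and was at or below 0.0538 CPM in the other adults. Only 81 to 515 Igkv reads were estimated per adult library, so adult shares rest on few reads. The 7 HDM lungs had 6 leaders, with Igkv4-91 at 32% in replicate 7 and Igkv3-2 at 27.5% in replicate 6 standing highest. The 7 HDM + Dex lungs had 5 leaders. In replicate 4 of that group Igkv6-15 was measured at 158 CPM, 56.3% of Igkv CPM, against 0.186 to 11.3 CPM in the other 6 mice. In replicate 7 Igkv1-117 was at 241 CPM, 36.2% of Igkv CPM, against 0.928 to 17.4 CPM in the others. HDM + Dex replicates 4 and 7 also had the highest Ms4a1, which encodes the B-cell surface protein CD20, at 96.0 and 128 CPM against 10.3 to 28.1 CPM in their group, and the part of B-cell number in these levels was not tested. The leading gene was the same in all 24 samples when CPM was divided by exon length, which ran from 338 to 501 nt.

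**Figure D2:**
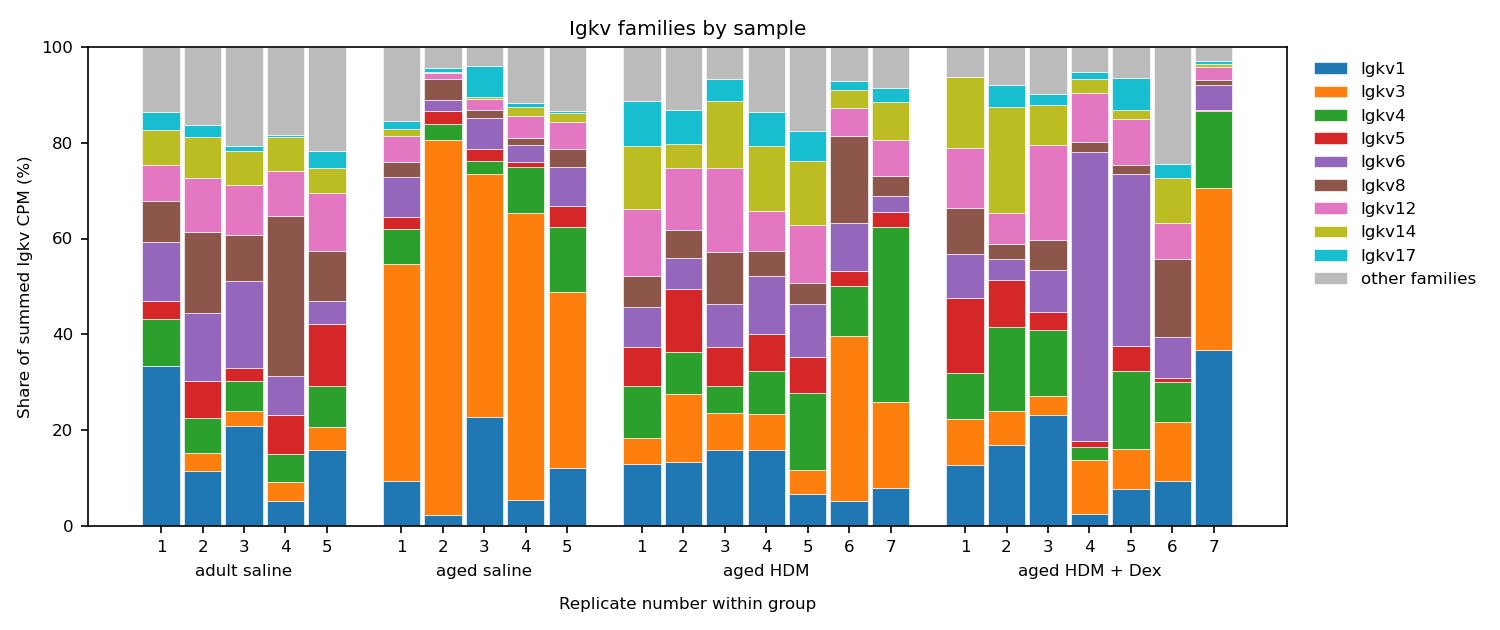
Share of summed Igkv CPM (%) held by 9 Igkv families and by all other families together, with 1 bar per mouse and groups side by side. Igkv3 holds 36.8% to 78.4% in the 5 naïve aged bars, and Igkv6 fills most of HDM + Dex replicate 4.

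Summed by family, the Igkv3 genes held 0% to 4.85% of Igkv CPM in adult, 36.8% to 78.4% in naïve aged, 5.03% to 34.4% in HDM and 3.93% to 33.7% in HDM + Dex lungs. Of the 17 families, Igkv3 was the only one whose share in naïve aged lungs lay above all adult values. The shares of Igkv8, Igkv10, Igkv12 and Igkv14 lay below them. Shares are parts of the same total, so a high Igkv3 share lowers those of the other families. In summed CPM Igkv10 was at 0.242 to 2.42 in adult and 1.27 to 18.6 in naïve aged lungs. Igkv12 was at 0.484 to 3.33 and 4.60 to 37.2 CPM, and Igkv14 at 0.484 to 1.45 and 1.26 to 13.4 CPM. Between HDM and naïve aged lungs the shares of 3 families did not overlap. Igkv12 was higher in HDM, at 5.88% to 17.4% against 1.35% to 5.59%. Igkv14 was higher too, at 3.81% to 14% against 0.17% to 1.92%, while Igkv3 was lower. In summed CPM the groups overlapped for Igkv12, at 4.60 to 37.2 in naïve aged and 18.4 to 137 in HDM lungs. They also overlapped for Igkv14, at 1.26 to 13.4 and 11.9 to 150 CPM. Between HDM + Dex and HDM no family share was free of overlap.

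The effective number of Igkv genes, the number of equally used genes that would give the same evenness of use, was 11.3 to 29.1 in adult, 2.23 to 9.99 in naïve aged, 7.47 to 27.5 in HDM and 2.98 to 19 in HDM + Dex lungs. The naïve aged values lay below all adult values. Without Igkv3-2, the leading gene of all 5 naïve aged lungs, their median rose from 4.86 to 13.7 genes. The range was then 7.52 to 30.1 in naïve aged and 11.3 to 28.8 (median 25.3) in adult lungs, so that the groups overlapped. In the naïve aged group, 19 of the 41 Igkv genes with a group mean of at least 1 CPM had over 50% of their summed CPM in 1 mouse. This was so for 17 of 56 genes in HDM and for 20 of 33 genes in HDM + Dex lungs. The mouse with the most CPM of a gene was often the one with the highest Igkv sum of its group. It was naïve aged replicate 4 for 22 of 41 genes, HDM replicate 5 for 34 of 56 and HDM + Dex replicate 7 for 14 of 33. These counts thus also reflect the spread of the Igkv sum, and the groups held 5, 7 and 7 mice.

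Aged vs. adult naïve lungs were compared gene by gene with limma on log2(CPM + 1), with Benjamini-Hochberg adjustment over the 17744 genes whose mean across the 24 samples reached 1 CPM. This filter kept 53 light-chain genes: 46 Igkv, 3 Iglv and the 4 constant genes. A group mean of 1 CPM was reached by 5 of these 53 genes in the adult group, by 42 in the naïve aged group, by 52 with HDM and by 38 with HDM + Dex, so that most passed the filter only through aged groups, where they are high. Counts and medians over the 53 genes are therefore given as a description and support no direction, and they do not stand for all 89 genes. Of the 53, 13 were called higher at an adjusted p under 0.05 (12 Igkv genes and Igkc), a share of 24.5%. Of all genes tested, 0.592% were called higher, 0.062% lower and 0.654% in either direction. The groups did not overlap for 25 of the 53 genes, against 2.91% of all genes in that direction. The median log2 fold change was 1.18 for the 53 genes and 0.19 for all genes, or 1.02 and 0.00 after median-of-ratios rescaling.

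Igkv3-2 had the highest log2 fold change of the 53, at 6.84 ± 0.60 (SE, limma adjusted p = 1.33e-05), followed by Igkc at 5.16 ± 0.48 (adjusted p = 1.77e-05). Igkv3-5 was at 0, 0.0494, 0.273, 0 and 0.592 CPM in adult and at 9.78, 45.3, 39.5, 87.7 and 2.29 CPM in naïve aged lungs, a log2 fold change of 4.28 ± 0.62 (limma adjusted p = 0.00217). Igkv3-10 had a single adult value above 0, 0.162 CPM in replicate 4, and was at 2.86, 33.6, 6.43, 35.7 and 2.55 CPM in naïve aged lungs, a log2 fold change of 3.35 ± 0.54 (limma adjusted p = 0.00522). With Igkv3-4, 4 of the 8 Igkv3 genes were called higher and the other 4 were not tested, and of those called Igkv3-5 and Igkv3-10 share nearly all of their sequence. Outside this family Igkv1-110 and Igkv1-117 of 3 tested Igkv1 genes, Igkv12-44 and Igkv12-46 of 5 Igkv12 genes, Igkv6-15, Igkv6-17 and Igkv6-23 of 6 Igkv6 genes, and Igkv2-137 were called, with log2 fold changes of 1.22 to 2.17. None of the 8 tested Igkv4 genes and none of the 4 tested Igkv8 genes was called by limma, with family medians of 0.83 and 0.75.

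In the same lungs Jchain, which encodes the joining chain of polymeric IgM and IgA, Mzb1 and Derl3 were 3 of 10 tested plasma cell genes called higher, while Sdc1 (log2 fold change 0.10) and Xbp1 (0.65) were among the 7 not called. The list summed to 134 to 282 CPM in adult and 395 to 919 CPM in naïve aged lungs. Ighm, Igha, Ighg1, Ighg2b and Ighg2c were 5 of 8 heavy-chain constant genes called higher. Of 12 mature B-cell genes limma called 0, with 6 at an unadjusted p under 0.05, and their sum was 86.4 to 239 CPM in adult and 138 to 437 CPM in naïve aged lungs. No gene of these 3 lists was at 0 in all samples of either group apart from 1 heavy-chain gene, Ighe, in adults. Their part in the light-chain values was not tested. The number of light-chain calls was 6 when all 24 samples were fitted together and 7 with the 7SL share as a covariate, and it was 26 among females alone, with 2 aged mice. Without any 1 mouse it was 10 to 19.

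**Figure D3:**
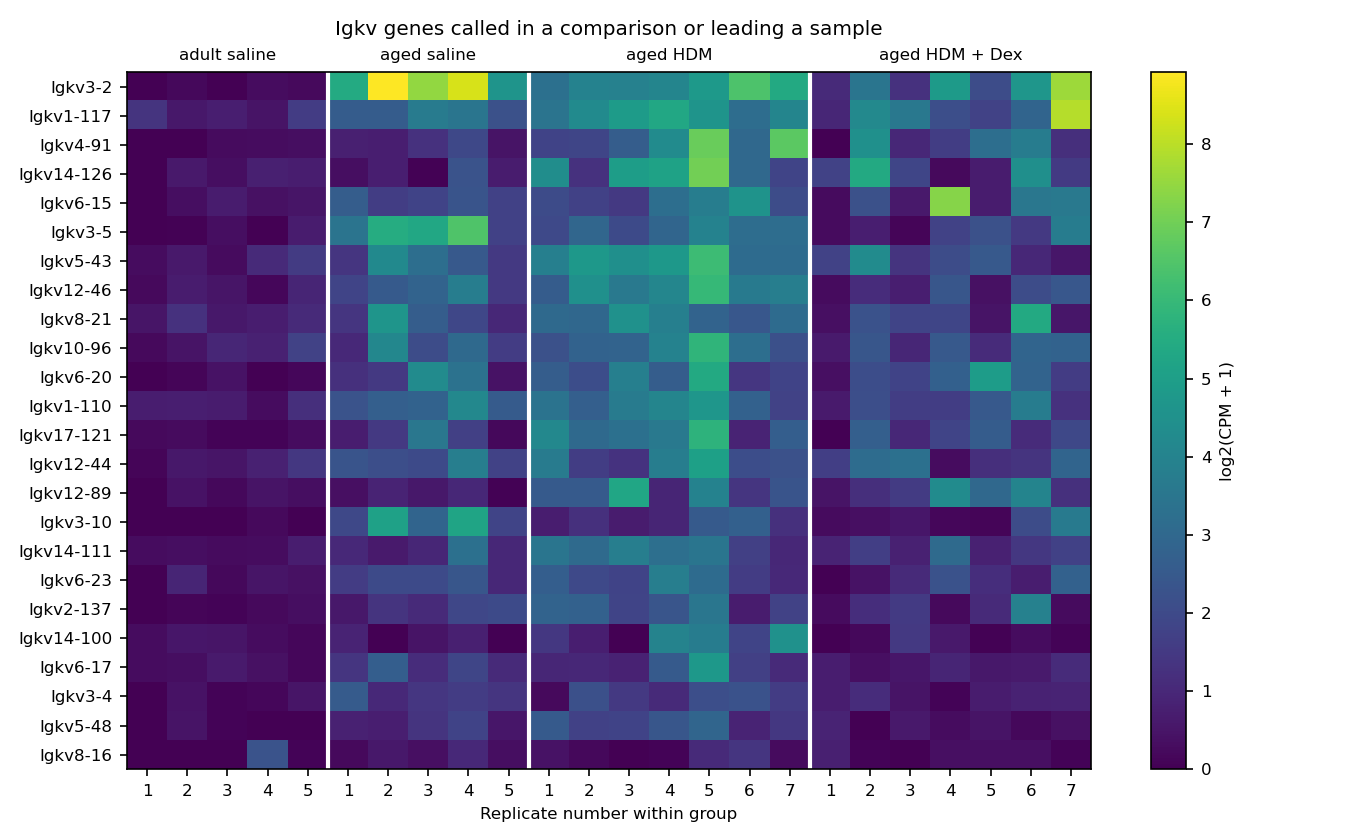
Levels of 24 Igkv genes, those called in a comparison or leading in a mouse, as log2(CPM + 1) in each of the 24 lungs, ordered by mean level. The Igkv3-2 row is brightest in the naïve aged columns, whereas Igkv14-126, Igkv5-43 and Igkv12-46 are brighter in HDM columns.

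HDM vs. saline in aged lungs asks how light-chain use differed after allergen challenge. Of the 53 light-chain genes, 9 were called higher and 1 lower, 18.9% in all, while 25.3% of all genes were called, 4.04% higher and 21.2% lower. Igkc was not among them, with a log2 fold change of −0.57 ± 0.69 (limma adjusted p = 0.558). The median log2 fold change was 0.67 for the 53 genes and −0.23 for all genes, or 0.80 and −0.01 after median-of-ratios rescaling. The split of calls over all genes depended on this scale. After rescaling 3986 of the 17744 genes were called, 1929 of them higher, against 717 higher before it. No light-chain gene was free of overlap between the groups in either direction, against 1.03% of all genes higher and 7.69% lower.

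Igkv14-126 had the largest increase. It was at 0.247, 0.700, 0.0483, 3.87 and 0.594 CPM in naïve aged lungs and ran from 1.41 through a median of 19.9 to 128 CPM in HDM lungs, a log2 fold change of 3.12 ± 0.88 (limma adjusted p = 0.0136). Only the saline lung at 3.87 CPM lay above the 2 lowest HDM lungs. Igkv14-100 (1.90) and Igkv14-111 (1.45), of the same family, were called higher as well. Igkv14-100 had a group mean of 7.73 CPM in HDM and 0.388 CPM in naïve aged lungs and, as 1 of 5 light-chain genes, passed the filter through the HDM group alone.

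Igkv4-91 was at 0.706, 0.700, 1.40, 2.82 and 0.396 CPM in naïve aged lungs and at 2.48 to 117 CPM (median 6.99) in HDM lungs, a log2 fold change of 2.83 ± 0.84 (limma adjusted p = 0.0177). Its HDM values were above 100 CPM in replicates 5 and 7 and at most 18.8 CPM in the other 5. Igkv12-46 was at 2.58, 4.76, 6.24, 12.7 and 1.78 CPM in naïve aged and at 5.05 to 62.8 CPM (median 13.0) in HDM lungs (log2 fold change 1.54 ± 0.49). Igkv12-89 (2.12), Igkv17-121 (1.81), Igkv5-43 (1.74) and Igkv5-48 (0.90) were also called higher.

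Igkv3-10 was the one light-chain gene called lower, with HDM values of 0.597 to 5.68 CPM (median 1.35) and a log2 fold change of −1.96 ± 0.64 (limma adjusted p = 0.0298). Igkv3-2 had a log2 fold change of −2.43 ± 0.91 (adjusted p = 0.0540) and Igkv3-5 one of −1.62 ± 0.65 (adjusted p = 0.0712), and neither passed the threshold.

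In the same lungs the heavy-chain genes Ighg1, Igha and Ighe, which encode the constant regions of IgG1, IgA and IgE, were called higher and Ighg2c lower, 4 of 8 tested, with the list at 604 to 3879 CPM in saline and 1052 to 4321 CPM in HDM lungs. Limma called 0 of 10 plasma cell and 0 of 12 mature B-cell genes, with 1 and 2 at an unadjusted p under 0.05. Plasma cell genes summed to 464 to 1079 CPM in HDM lungs and mature B-cell genes to 188 to 497 CPM. Of 6 lung epithelial and endothelial markers 4 were called lower, and Sftpc and Ager were not called. All 6 together summed to 2370 to 6267 CPM in HDM against 8214 to 12743 CPM in saline lungs. The part of such shifts in the light-chain values was not tested. With the 7SL share as a covariate only Igkv14-100 stayed called (log2 fold change 2.54, adjusted p = 0.0372). Igkv14-100 passed the filter through the HDM group alone, so its call supports no direction. Igkv3-10 lost its call after rescaling (adjusted p = 0.0515). The count of 10 became 4 without saline replicate 1, 6 without saline replicate 2 or 5, 6 without HDM replicate 3, 5 without HDM replicate 4 and 4 without HDM replicate 5.

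HDM + Dex vs. HDM asks what Dex changed in challenged aged lungs. Limma called 3 light-chain genes lower and 0 higher, 5.66% of the 53, and at an unadjusted p under 0.05 there were 30 lower and 0 higher, where 4.96% of all genes were lower and 8.5% higher at that threshold. Of all genes 0.964% were called, 0.214% lower and 0.75% higher. The median log2 fold change was −1.08 for the 53 genes and 0.03 for all genes, and 52 of the 53 genes reached a mean of 1 CPM in HDM against 38 in HDM + Dex lungs. Igkc was measured at −1.18 ± 0.63 (limma adjusted p = 0.434).

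Igkv12-46 fell from 5.05 to 62.8 CPM in HDM lungs to 0.186 to 4.33 CPM (median 1.19) with Dex, a log2 fold change of −2.69 ± 0.45 (limma adjusted p = 0.0221), and the groups did not overlap. Igkv5-48 was lower by −1.54 ± 0.26 on the log2 scale (adjusted p = 0.0221), and its lowest HDM value, 0.836 CPM, lay next to its highest Dex value, 0.835 CPM. Igkv5-43 was at 7.67 to 68.3 CPM (median 20.8) in HDM and at 0.459 to 18.9 CPM (median 2.37) with Dex, where replicate 2 alone reached the HDM range, a log2 fold change of −2.38 ± 0.54 (limma adjusted p = 0.0356). Its near-identical copy Igkv5-45 was at or below 0.856 CPM in every sample. Groups without overlap were thus found for 2 light-chain genes, both lower, against 0.0789% of all genes lower and 0.147% higher.

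These 3 genes were also among those called higher in HDM vs. saline, but both comparisons use the same HDM samples, so the 2 sets of values are not independent. Ighg1, Igha and Ighg2b were 3 of 8 heavy-chain genes called lower with Dex. Limma called 0 of 10 plasma cell genes and 0 of 12 mature B-cell genes (1 and 2 at an unadjusted p under 0.05), whose sums with Dex were 230 to 770 CPM and 152 to 593 CPM. Their part in the light-chain values was not tested. The count of 3 rests on single libraries: it was 0 without HDM replicate 4 or 5 or HDM + Dex replicate 5, 1 without HDM replicate 1 or HDM + Dex replicate 1 or 4, 7 without HDM replicate 2 or 6, and 8 without HDM replicate 7 or HDM + Dex replicate 6. It was also 0 when only these 2 groups were fitted and 8 after quantile normalization.

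**Figure D4:**
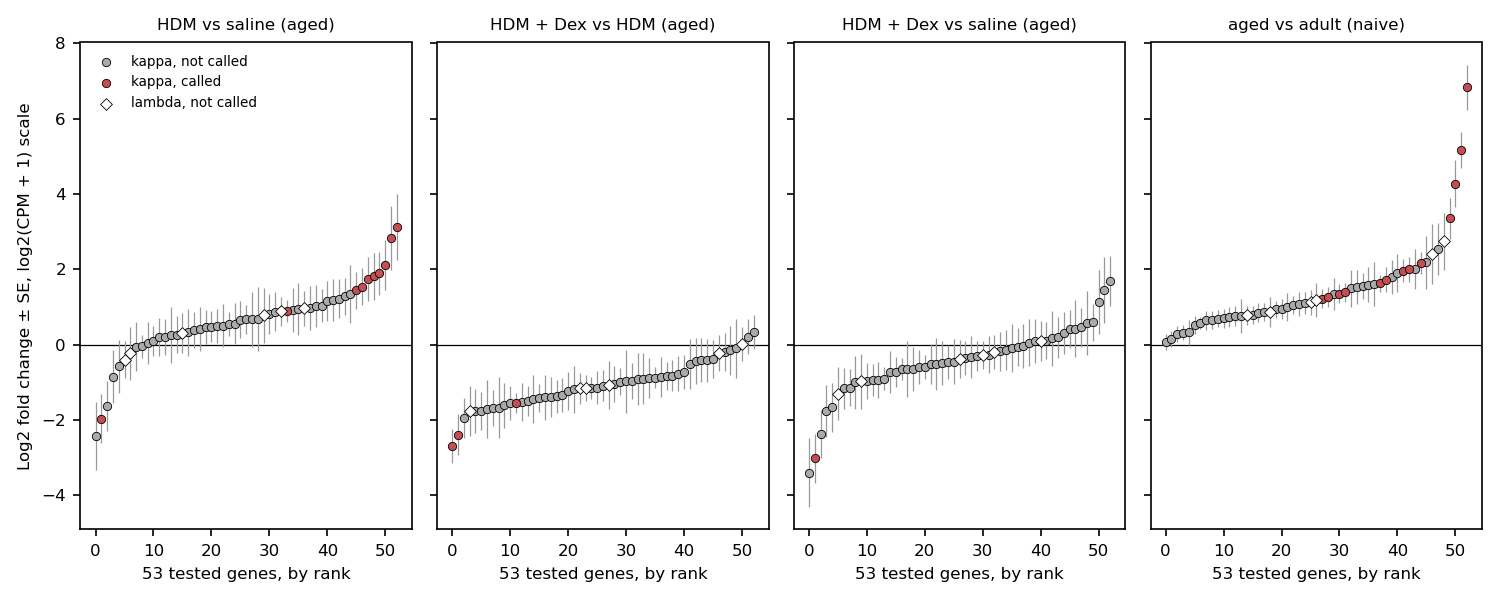
Log2 fold changes with their SE of the 53 tested light-chain genes in each comparison, ordered by value, on the log2(CPM + 1) scale; kappa genes are circles, lambda genes diamonds, and called genes are red. Igkv3-2 and Igkc lie highest with age, at 6.84 and 5.16, and the 3 genes called in HDM + Dex vs. HDM lie at −2.69 to −1.54.

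HDM + Dex vs. saline in aged lungs gave 1 light-chain call, 1.89% of the 53, equal to the 1.89% of all genes called (1.44% lower). Igkv3-5 was lower, at 0.0892 to 12.4 CPM (median 1.80) with Dex against the 2.29 to 87.7 CPM of naïve aged lungs, a log2 fold change of −3.02 ± 0.65 (limma adjusted p = 0.0247). Igkv3-2 was measured at −3.39 ± 0.91 (adjusted p = 0.0539) and Igkc at −1.76 ± 0.69 (adjusted p = 0.166). The median log2 fold change was −0.37 for the 53 genes and −0.19 for all genes. Igkv9-120 alone did not overlap between the groups, lower with Dex, against 1.87% of all genes lower and 0.524% higher, and it was not called. The count of 1 became 0 without saline replicate 3 or 4, without HDM + Dex replicate 1, 2 or 6 and with the 7SL share as a covariate. It became 2 without HDM + Dex replicate 4 and 4 without HDM + Dex replicate 7. With a sex covariate it was 4, and Igkc was then among them (adjusted p = 0.0370).

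The lambda genes were 6, and each Iglc gene was lower than Igkc in every sample. Mouse lambda has a small set of V genes, and each lambda constant gene lies near its own J segment. Iglv1 is mostly joined to Iglc1 or Iglc3, and Iglv2 mostly to Iglc2. A stretch of 99 bases near the start of the lambda constant exons is shown because the 3 genes are told apart by it. It begins at the same shared run of bases in each gene, and capitals mark positions that differ from Iglc2.
Iglc2 (chr16:19198752-19198850, minus strand): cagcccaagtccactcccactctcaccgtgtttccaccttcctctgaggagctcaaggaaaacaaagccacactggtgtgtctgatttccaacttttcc
Iglc3 (chr16:19065581-19065679, minus strand): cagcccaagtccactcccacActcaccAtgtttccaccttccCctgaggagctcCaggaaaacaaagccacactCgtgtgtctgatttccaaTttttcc
Iglc1 (chr16:19061971-19062069, minus strand): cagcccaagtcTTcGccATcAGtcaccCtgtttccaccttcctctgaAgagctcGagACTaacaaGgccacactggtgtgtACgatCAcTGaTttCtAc
Over this stretch Iglc3 differed from Iglc2 at 6 positions and Iglc1 at 23. Over the compared coding sequence Iglc2 and Iglc3 were 96.2% identical, and Iglv1 and Iglv2 97.0%, so values within these pairs are less certain than those of Iglc1 and Iglv3.

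The share of lambda in the summed CPM of the 4 constant genes was 30.9%, 41.8%, 36.9%, 25.0% and 31.7% in adult lungs and 5.20%, 3.77%, 14.1%, 3.64% and 4.28% in naïve aged lungs, without overlap. It was 6.10% to 15.6% (median 8.39%) in HDM and 5.83% to 19.2% (median 9.94%) in HDM + Dex lungs. Among variable genes the lambda share of adult lungs was 5.81% to 13.3%, and the groups overlapped: 1.10% to 23.1% in naïve aged, 2.80% to 10.1% in HDM and 1.14% to 11.2% in HDM + Dex lungs. The 2 measures thus gave different adult levels, 8.47% of variable-gene and 33.3% of constant-gene CPM on average.

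**Figure D5:**
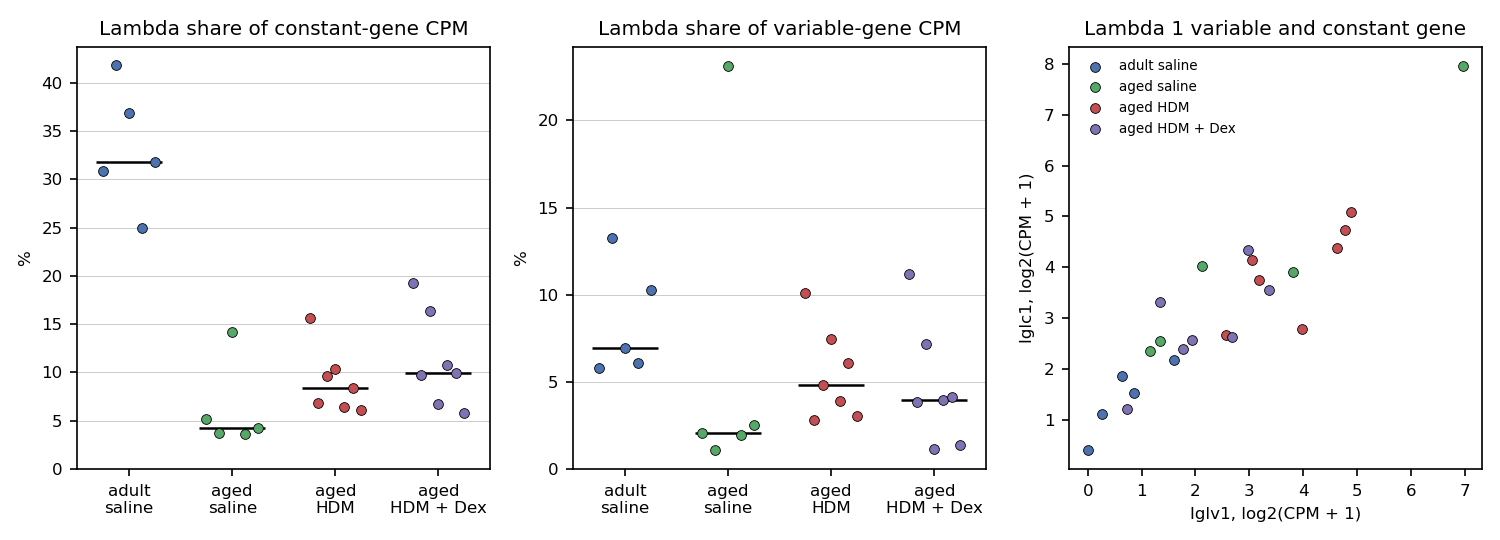
Lambda share (%) of constant-gene and of variable-gene CPM with 1 point per mouse and bars at group medians, and Iglc1 against Iglv1 as log2(CPM + 1). Adult lungs stand above all others in the first panel, and naïve aged replicate 3 stands apart in the other 2 panels.

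Naïve aged replicate 3 held most of the lambda signal of its group. Its Iglc1 was at 248 CPM and its Iglv1 at 125 CPM, while the other 4 naïve aged lungs were at 4.11 to 15.3 and 1.24 to 13.0 CPM. In adult lungs Iglc1 was at 0.323, 2.62, 1.16, 1.89 and 3.50 CPM, below all naïve aged values. HDM lungs had 5.36 to 33.2 CPM (median 16.6) of Iglc1 and 4.89 to 28.6 CPM (median 14.7) of Iglv1. HDM + Dex lungs had 1.30 to 19.3 CPM (median 5.17) and 0.649 to 9.27 CPM (median 2.84). Iglc2 was at 2.26 to 13.4 CPM in adult, 6.04 to 34.0 CPM in naïve aged, 7.86 to 50.1 CPM in HDM and 4.27 to 48.3 CPM in HDM + Dex lungs, with overlap between every pair of groups. Iglc3 was at 2.10 to 5.87 CPM in adult, 4.06 to 19.7 CPM in naïve aged, 12.7 to 30.6 CPM in HDM and 3.06 to 38.9 CPM in HDM + Dex lungs. Iglv2 was at most 9.30 CPM (HDM replicate 5), and Iglv3 reached 12.2 CPM in HDM replicate 6.

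Limma called 0 of the 6 lambda genes in each comparison. At an unadjusted p under 0.05 there were 6 higher with age, 2 higher in HDM vs. saline, 3 lower in HDM + Dex vs. HDM and 0 in HDM + Dex vs. saline. In either direction 11.2%, 39.2%, 13.5% and 21.2% of all genes lay under that threshold. In the direction of the lambda genes the first 3 shares were 10% higher, 6.58% higher and 4.96% lower. With age their log2 fold changes were 0.78 to 2.74, the largest for Iglc1 (2.74 ± 0.75, adjusted p = 0.133). Among females alone Iglc1 and Iglv1 were called (adjusted p = 0.00435 and 0.000474), and the 2 aged mice of this set were naïve aged replicates 3 and 4, of which replicate 3 is the mouse with high lambda. In HDM vs. saline Iglv3 (0.88 ± 0.38, adjusted p = 0.0881) and Iglc3 (0.96 ± 0.45, adjusted p = 0.118) were highest, and Iglv3 was called after rescaling (adjusted p = 0.0483). In HDM + Dex vs. HDM Iglv1 was measured at −1.76 ± 0.67 (limma adjusted p = 0.216). Whether lambda genes changed by another amount than kappa genes was not tested.

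The position of the Igkv genes along chromosome 6 was described last. The 82 genes were split into 3 parts by distance from Igkc, with 28 genes at 22.3 to 902 kb, 28 in the middle and 26 at 1990 to 3170 kb, and 33 of the 82 lie on the same strand as Igkc (Igkc at chr6:70726435-70726966, plus strand, GRCm38). The part nearest to Igkc held 53% to 87.7% of Igkv CPM in naïve aged lungs, against 24.7% to 53.1% in adult, 27.2% to 65.6% in HDM and 22.4% to 76.7% in HDM + Dex lungs. Without Igkv3-2, which lies 27.4 kb from Igkc, the range in naïve aged lungs was 33.9% to 63.4%, and that in adult lungs was 24.7% to 52.4%.

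The 36 light-chain genes with a mean under 1 CPM were all Igkv genes and were not tested. The gene just inside this limit was Igkv4-57 at a mean of 1.05 CPM, and the gene just outside was Igkv4-61 at 0.986 CPM. Igkv4-61 also had the highest single value of the 36, 15.6 CPM in naïve aged replicate 4, and 10 of the 36 reached 5 CPM in at least 1 mouse. Over all 4 comparisons 21 light-chain genes were called at least once, of which Igkv3-5, Igkv3-10, Igkv5-43, Igkv5-48 and Igkv12-46 were called in more than 1.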

How the data were processed

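RNA was taken from the left lung lobe of each of the 24 mice, and poly(A)-selected stranded libraries were sequenced in pairs. Reads were aligned with STAR, and the submitters' notes further list FastQC, DESeq2 and mm9. The gene coordinates of the table were those of GRCm38, since 23142 of 23276 symbols found in GENCODE M21 had the same start. The read counter, its strand setting and its treatment of reads that match several V genes were not given in the sources used here. The deposited values are CPM, counts scaled by the authors to the same total in each sample, with 0.0001 added to each value, and this constant was taken off. The spacing of low values gave an estimated depth, but only 80.7% to 84.9% of low values were whole reads (within 0.05), so no count test was run.

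Groups were compared with limma 3.58.1 in R 4.3.3 (moderated test with a mean-variance trend) on log2(CPM + 1), over the 17744 genes whose mean reached 1 CPM, with Benjamini-Hochberg adjustment and a threshold of 0.05. This scale understates changes of low genes. The 3 aged groups shared 1 fit, and the naïve groups another, and the procedure was tested on simulated data. Shares, sums and effective numbers were described without a test. Genes were named if they were constant or Iglv genes, among the 10 Igkv genes with the highest mean, among the 8 largest called changes of a comparison, or leading in a mouse. Igkv2-137, Igkv3-1, Igkv3-4, Igkv4-57, Igkv4-61, Igkv5-45, Igkv6-17, Igkv6-23, Igkv9-120 and Igkv14-111 were named after their values were seen. The members and lists were chosen with earlier results of these data known. Alternatives covered the pseudocount, filter, scaling, samples fitted, variance trend, sample weights, replicate block, sex, 7SL share and each mouse left out. Depth intervals and floors cover counting error only. Lists of germinal centre and T-cell genes gave 0 calls by limma in each comparison, with 1 germinal centre and 0 to 3 T-cell genes at an unadjusted p under 0.05. Of the immature B-cell list only Rag1 was in the table, at up to 0.494 CPM.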

Additional observations from a re-analysis of the deposited data

Results flagged for a closer look

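Over 12 measures in 4 groups, 48 groups were examined for a sample far from the rest of its group, and 10 held one. For independent, normally distributed measures the limit used would give about 1 in 20, or 2.4. These measures are not independent, since the lambda share includes Iglc1, and all 10 samples lay at the high end. The 10 therefore cannot be read as an excess over 2.4. HDM replicate 5 stood high in Igkc, at 1668 CPM against 369 to 683 CPM in the other 6 mice, in summed Igkv, at 1130 CPM against 239 to 428 CPM, and in Iglv2, at 9.30 CPM against 0.0302 to 0.684 CPM. HDM + Dex replicate 7 stood high in Igkc, at 1721 CPM against 36.3 to 740 CPM, in summed Igkv, at 665 CPM against 22.1 to 281 CPM, and in Iglc3, at 38.9 CPM against 3.06 to 17.4 CPM.

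Naïve aged replicate 3 stood high in its lambda genes. Iglc1 was at 248 CPM against 4.11 to 15.3 CPM in the other 4 mice, and Iglv1 at 125 CPM against 1.24 to 13.0 CPM. The lambda share was 14.1% of constant-gene CPM against 3.64% to 5.20%, and 23.1% of variable-gene CPM against 1.10% to 2.52%. What sets these 3 mice apart was not tested.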

How the results depend on the processing

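Of 1323 alternative values of 67 results, 1140 kept their direction and side of the threshold or stayed within range, 81 lost and 23 gained a call, 30 changed sign and 49 counts or shares moved. The causes were not tested. In HDM vs. saline the count of 10 light-chain genes became 5 with a minimum mean of 5 CPM, 23 with sample quality weights and 1 with the 7SL share as a covariate, and leaving out 1 mouse gave 4 to 15. In HDM + Dex vs. HDM the count of 3 became 7 with a pseudocount of 0.1 CPM, 6 after median-of-ratios rescaling, 8 after quantile normalization, 0 with only the 2 groups in the fit, 10 with all 24 samples, 14 with weights and 6 with the 7SL share, and leaving out 1 mouse gave 0 to 8. In HDM + Dex vs. saline the count of 1 became 2 with a pseudocount of 0.1 CPM, 2 with that minimum, 3 with all 24 samples, 9 with weights, 4 with sex as a covariate and 0 with the 7SL share, and leaving out 1 mouse gave 0 to 4. In aged vs. adult lungs the count of 13 became 8 with a pseudocount of 5 CPM, 8 with that minimum, 6 with all 24 samples, 30 with weights, 26 in females and 7 with the 7SL share, and leaving out 1 mouse gave 10 to 19. Calls over all genes move with such settings too: median-of-ratios rescaling took them from 171 to 505 in HDM + Dex vs. HDM. For the other settings they are not given here. The counts under the alternatives, here and above, therefore show no change particular to light-chain genes.

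The deviations of samples with the same replicate number had correlations of −0.24 to 0.41. The highest were 0.41 for replicate 7 of HDM + Dex and HDM and 0.30 for replicate 4 of HDM and saline. In 1 of 22 pairs the sample with its own number was the best partner, so the numbers were not taken as pairs. With the replicate block the counts were 14 in HDM vs. saline, 3 in HDM + Dex vs. HDM, 3 in HDM + Dex vs. saline and 19 in aged vs. adult lungs, and the log2 fold change of Iglc2 in HDM + Dex vs. saline was −0.12.

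The values that changed sign belonged to genes that were not called. In HDM vs. saline they were Igkc (0.65 with the 7SL share), Iglc1 (0.0053 after median-of-ratios rescaling, 0.50 with the 7SL share, −0.67 to 0.73 with 1 mouse left out) and Iglv2 (−0.82 to 0.023 with 1 mouse left out). In HDM + Dex vs. HDM they were Iglc2 (−0.47 to 0.063 with 1 mouse left out) and Iglv2 (−0.064 with a pseudocount of 5 CPM, −0.067 after quantile normalization, −0.11 to 0.45 with 1 mouse left out). In HDM + Dex vs. saline Iglc2 was at −0.024 with weights, −0.047 with sex and −0.18 to 0.40 with 1 mouse left out. Iglc3 was at 0.11 with the 7SL share and −0.53 to 0.024 with 1 mouse left out, Iglv3 at 0.083 with the 7SL share, Iglv2 at −0.61 to 0.044 and Iglv1 at −1.45 to 0.0021 with 1 mouse left out.

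No Igkv row was annotated as a pseudogene, so that alternative gave no value. Adult lungs held 81 to 515 estimated Igkv reads, which limits their shares, and nearly identical V genes limit the separation of single members.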
